A study of Arabidopsis thaliana with 24 samples.

Results

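The genes described here are the respiratory genes of the Arabidopsis mitochondrial genome whose symbols start, in lower case, with nad or cox and a digit. On the ATH1 array 17 of 22810 probe sets are annotated to exactly 1 such gene. Of these, 15 probe sets belong to 8 nad genes (nad1 with 7, nad5 with 2, and nad2, nad4, nad4L, nad6, nad7 and nad9), and 2 belong to cox1 and cox2. A further 3 probe sets name such a gene together with a gene of nuclear chromosome 2 and were left out. All 10 symbols lie on the mitochondrial chromosome in RefSeq, which holds 12 nad and cox genes. The table used names no probe set for nad3 or cox3 alone.

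The RNA came from aerial parts of Arabidopsis thaliana seedlings that had grown in the dark to an age of 4 d. The mutant dcp5-1, in the Col-0 ecotype, was set against the Col-0 control, each after 4 h of white light and in the dark. DCP5 belongs to processing bodies, granules of the cytoplasm where mRNAs are kept from translation. Polysome-bound and total RNA were hybridised separately, which gave 8 groups of 3 arrays: polysomal RNA of dcp5-1 in light, dcp5-1 in the dark, Col-0 in light and Col-0 in the dark, and total RNA of the same 4. Because the labels give only replicate numbers and not separate cultures, p-values measure only the spread between these samples, which may be technical. The genotype labels were not checked by the level of DCP5, for which no probe set is named.

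The respiratory chain of the inner mitochondrial membrane passes electrons from NADH and succinate to oxygen. The nad genes encode membrane and core subunits of complex I, the NADH dehydrogenase, and the cox genes encode the catalytic core of complex IV, cytochrome c oxidase. Most other subunits are made in the cytosol from nuclear mRNAs, while the organelle's mRNAs are translated by its own ribosomes. In plants nad1, nad2 and nad5 mRNAs are joined from separately transcribed pieces by trans-splicing. The amplification kit of the labels primes on poly(A), and plant mitochondrial mRNAs mostly lack stable poly(A) tails, so a signal here is that of the primed share of a transcript. Chromosome 2 of Arabidopsis also carries an insertion of mitochondrial DNA, and a probe set matching both copies cannot tell them apart.

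Values are log2 signals. Total-RNA arrays were used as deposited, and each polysomal array was shifted so that its median equals the mean of the total-RNA medians, 7.39, because the deposited polysomal arrays differ in scale, by divisors from 1.42 to 7.32. The labels do not say what these divisors stand for, and whether they carry overall polysome loading, which the centring would remove, was not tested. A polysomal value is therefore relative to the median transcript of its array. Replicates correlated at 0.93 to 0.96 across probe sets. After 64 controls and the dimmest 25% were left out, 17059 probe sets were tested with limma, called at an adjusted p under 0.05. The protochlorophyllide reductase gene PORB, the only 1 of 5 seedling shoot markers with a probe set of its own, lay above 98.9% of probe sets in total RNA.

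The respiratory transcripts gave low signals. In total RNA cox1, which encodes subunit 1 of cytochrome c oxidase, had a mean log2 signal at the 50.3 percentile of all probe sets, nad4 at the 46.1 percentile and cox2 at the 38.2 percentile. The other 14 probe sets lay between the 16.7 and the 35.7 percentile. Only 7 of the 17 passed the filter on dim probe sets, for nad1 (257321_at and 257322_at), nad4, nad5 (257338_s_at), nad9, cox1 and cox2. The filter fell at a mean of 4.86. Just above it lay nad9 at 4.89 and nad1 257321_at at 4.90, and just below it lay nad2 at 4.52 and nad6 at 4.49. Of 408 values 6 were at the lowest value of their array, all in 2 probe sets that were not tested. Of the 7 tested, cox2, nad5, nad1 257321_at and nad9 had polysomal means of 3.71 to 4.07, below the filter, so that they entered the test through total RNA, where they were higher. Counts and medians over the 7 are therefore descriptions. No detection call was used here, so a low polysomal signal is not shown to lie above background, and differences are given in log2 signal with no fold. Replicates spread more widely in polysomal than in total RNA in all 7 tested probe sets. The pooled within-group SD in polysomal RNA was 0.55 for cox1, 0.59 for cox2 and up to 1.35 for nad1 257321_at, against 0.49, 0.35 and 0.55 in total RNA. The medians over all tested probe sets were 0.32 in polysomal and 0.28 in total RNA.

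In all 4 conditions the polysomal signals of these transcripts lay mostly below their total-RNA signals. This comparison sets a transcript's signal in the polysomal fraction, relative to the median of its array, against its signal in total RNA. Whether it reads the hold of mitochondrial ribosomes on these transcripts was not tested. Transcripts of cox2, which encodes the copper-binding subunit 2 of cytochrome c oxidase, were lower in polysomal RNA in every condition, and those of nad5, a proton-pumping membrane subunit of complex I, in 3 of 4. Those of nad9, a subunit of the arm of complex I that faces the matrix, were lower in Col-0 in the dark. The log2 signals of cox2, polysomal minus total, differed by -3.31 ± 0.46 (SE) in dcp5-1 in light, where its polysomal mean was 3.01. Such bulk values cannot tell a difference present in all cells from one present in some cells only.

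**Figure D1:**
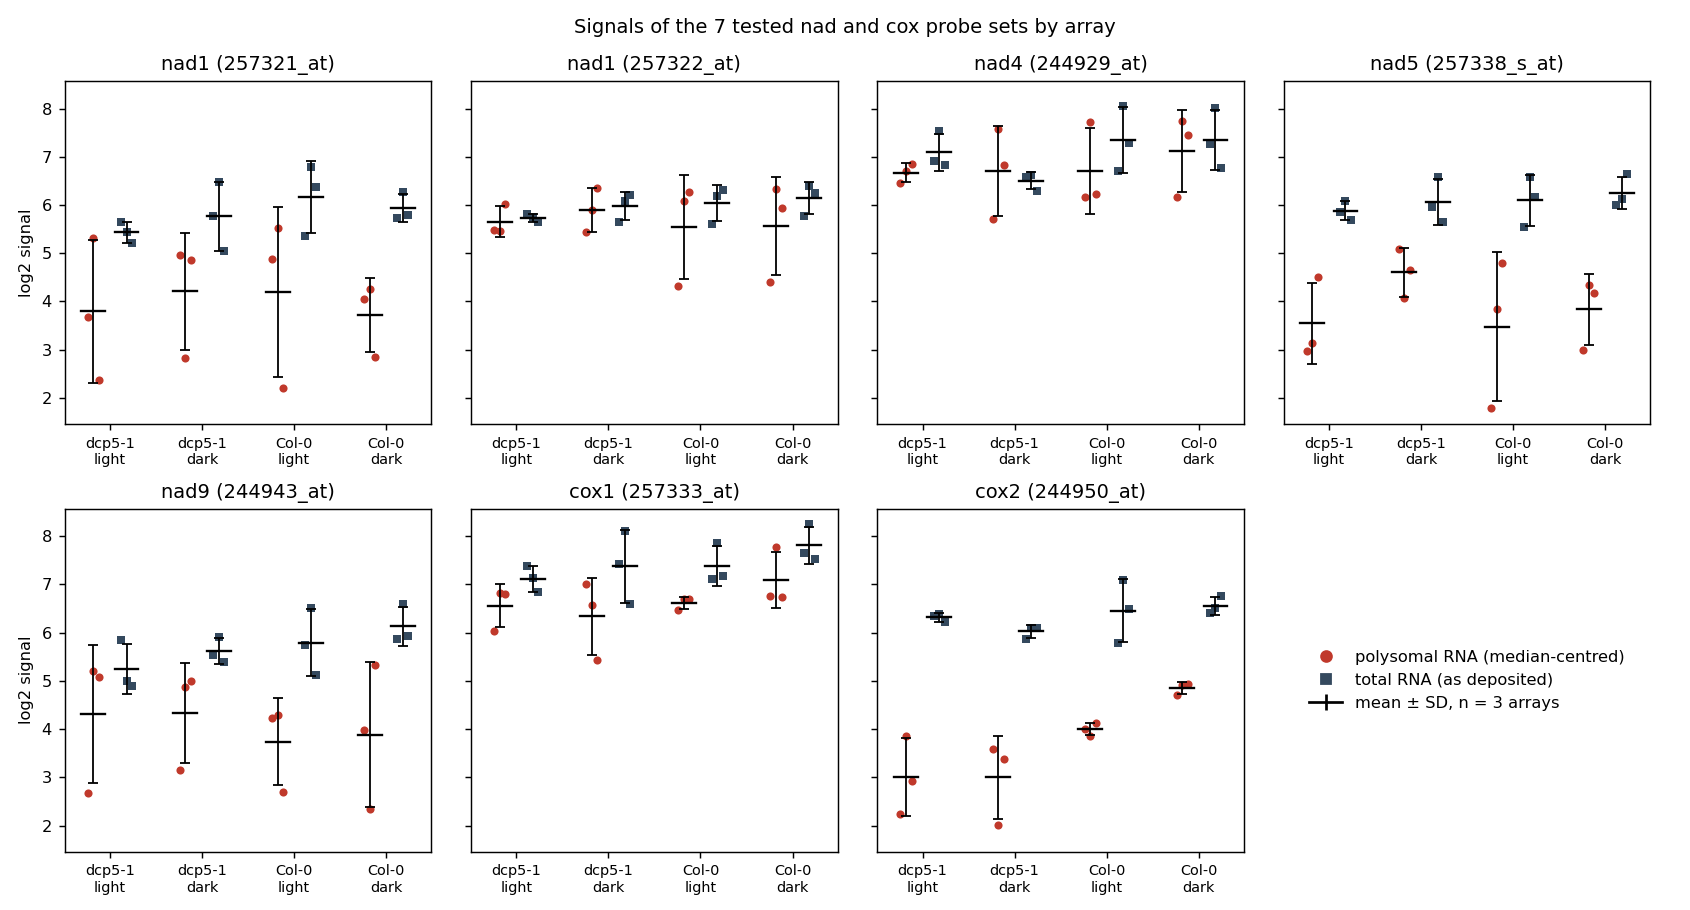
Log2 signal of each array for the 7 tested nad and cox probe sets (vertical axis), by genotype and light condition (horizontal axis), with polysomal RNA in circles left of total RNA in squares, and bars for the mean ± SD of 3 arrays. For cox2 and nad5 all 12 polysomal arrays lie below all 12 total-RNA arrays, while the ranges of the fractions overlap for the other 5.

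Polysomal cox2 had log2 signals of 2.25, 3.85 and 2.93 in dcp5-1 in light, against 6.35, 6.39 and 6.21 in total RNA. In dcp5-1 in the dark polysomal cox2 had 3.58, 2.02 and 3.39, against 5.87, 6.11 and 6.10 in total RNA. In the mutant every polysomal array thus lay well below its total-RNA counterpart. In Col-0 in light it had 4.00, 3.87 and 4.12 in polysomal RNA, against 5.79, 7.09 and 6.50 in total RNA. In Col-0 in the dark it had 4.71, 4.92 and 4.93 in polysomal RNA, against 6.40, 6.51 and 6.75 in total RNA. The highest polysomal array, at 4.93, lay below the lowest total-RNA array, at 5.79, so the fractions did not overlap across the 24 arrays. The log2 difference was -3.31 ± 0.46 in dcp5-1 in light (adjusted p = 0.00013), -3.03 ± 0.46 in dcp5-1 in the dark (adjusted p = 0.00022), -2.46 ± 0.46 in Col-0 in light (adjusted p = 0.0011) and -1.70 ± 0.46 in Col-0 in the dark (adjusted p = 0.017). The last call ended without polysomal replicate 3 (adjusted p = 0.051) or total replicate 3 (adjusted p = 0.069) of dark Col-0.

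The nad5 probe set 257338_s_at had polysomal signals of 2.98, 3.15 and 4.51 in dcp5-1 in light, against 5.86, 6.09 and 5.69 in total RNA. In dcp5-1 in the dark it had 5.10, 4.08 and 4.64 in polysomal RNA, against 5.96, 6.58 and 5.65 in total RNA. All polysomal arrays of the mutant were again the lower ones. In Col-0 in light it had 1.78, 3.84 and 4.80 in polysomal RNA, against 5.54, 6.59 and 6.16 in total RNA. In Col-0 in the dark polysomal RNA gave 3.0, 4.33 and 4.18, against 6.01, 6.12 and 6.64 in total RNA. These ranges did not overlap either, with a highest polysomal value of 5.10 and a lowest total value of 5.54. The log2 difference was -2.34 ± 0.61 in dcp5-1 in light (adjusted p = 0.013), -2.62 ± 0.61 in Col-0 in light (adjusted p = 0.0057) and -2.42 ± 0.61 in Col-0 in the dark (adjusted p = 0.011). In dcp5-1 in the dark it was -1.45 ± 0.61, which did not pass (adjusted p = 0.12). The call in light dcp5-1 ended without its polysomal replicate 1 (adjusted p = 0.052) or 2 (adjusted p = 0.061), and that in dark Col-0 without total replicate 3 (adjusted p = 0.053). In light Col-0 the call ended when only the compared groups were fitted (adjusted p = 0.069).

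For nad9 the polysomal signals in dark Col-0 were 3.98, 2.34 and 5.34, against 5.88, 6.60 and 5.93 in total RNA. The polysomal replicates spread over 3 log2 units, yet all 3 lay below total RNA. The log2 difference was -2.25 ± 0.73 (adjusted p = 0.045). The call ended with quantile normalisation (adjusted p = 0.070), without the filter on dim probe sets (adjusted p = 0.058), in the compared groups alone (adjusted p = 0.083), and without 5 of the 6 arrays in turn (adjusted p up to 0.24, at a difference of -1.48 without polysomal replicate 2). In light Col-0 nad9 differed by -2.05 ± 0.73 (adjusted p = 0.064, or 0.041 with replicate number as a block). Its differences in dcp5-1, -0.93 in light and -1.28 in the dark, did not pass.

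The nad1 probe set 257321_at, for a membrane subunit of complex I, stood near the threshold in Col-0. The log2 difference was -2.22 ± 0.78 in the dark (adjusted p = 0.065, or 0.026 with the block) and -1.97 ± 0.78 in light (adjusted p = 0.097, or 0.045 with the block). Array weights also made both pass (adjusted p = 0.023 in the dark and 0.029 in light), as did the compared groups alone in the dark (adjusted p = 0.039) and leaving out polysomal replicate 2 in light (adjusted p = 0.046). Transcripts of cox1 differed by -1.04 ± 0.39 in dark dcp5-1 (adjusted p = 0.077, or 0.016 with the block and 0.033 or 0.031 without polysomal replicate 1 or total replicate 3) and by -0.56 to -0.76 in the other 3 conditions. The least different were nad4, a membrane subunit of complex I, from -0.64 to 0.20, and the second nad1 probe set 257322_at, from -0.58 to -0.08, of which none passed.

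In counts, 2 of the 7 tested probe sets were lower in polysomal RNA in dcp5-1 in light, where 5.05% of all tested probe sets were lower. In dcp5-1 in the dark it was 1 of 7, against 5.58% of all, in Col-0 in light 2 of 7, against 5.37%, and in Col-0 in the dark 3 of 7, against 4.75%. With the replicate block the counts were 2, 2, 4 and 4. No tested member was called higher in polysomal RNA in any condition. The 3 polysomal arrays lay below the 3 total-RNA arrays for 3 of the 7 in dcp5-1 in light (14.3% of all tested probe sets), 4 of 7 in dcp5-1 in the dark (13.8%), 4 of 7 in Col-0 in light (11.3%) and 4 of 7 in Col-0 in the dark (11.8%). The median log2 difference of the 7 was -0.93, -1.28, -1.97 and -1.70 in the same order of conditions, beside medians of 0.07, 0.06, 0.04 and 0.06 over all tested probe sets. The median in light Col-0 was -0.98 without polysomal replicate 3, and that in light dcp5-1 was -0.32 without polysomal replicate 1. A total-RNA mean below 7.39 was found in 5680 tested probe sets, which take in 6 of the 7 members. Of these 5680, 2.01%, 2.1%, 2.1% and 1.87% were lower in polysomal RNA. That pool was itself chosen by a low total-RNA mean. The members called without the block, cox2, nad5 and nad9, entered the test through total RNA. The counts are therefore descriptions and draw no support from any of these shares. On the values as deposited, where the median of all tested probe sets was itself shifted by -0.89, -1.28, -0.91 and -2.17, 6, 6, 7 and 7 of the 7 were lower.

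**Figure D2:**
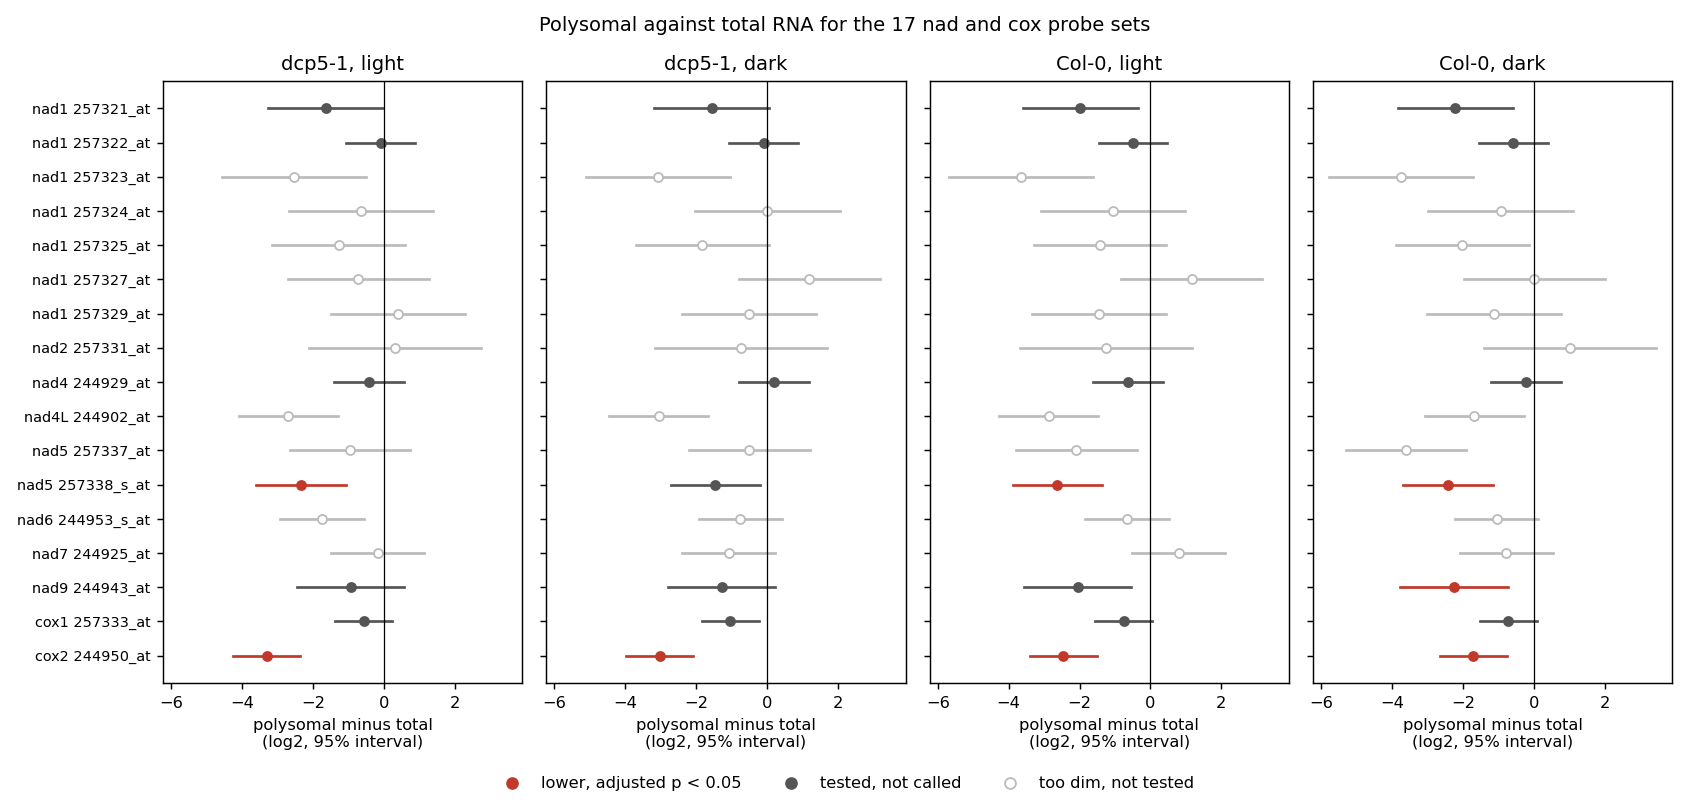
Polysomal minus total log2 signal with 95% intervals (horizontal axis) for all 17 nad and cox probe sets (rows), in dcp5-1 in light and in the dark and in Col-0 in light and in the dark (panels). Filled red points were lower at an adjusted p under 0.05, filled grey points were tested and not called, and open points were too dim to be tested. Only cox2 is red in all 4 panels.

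The 4 conditions were also averaged in 1 comparison, chosen after the data were seen, which uses all 24 arrays. In it 5 of the 7 tested probe sets were lower in polysomal RNA, where 19.6% of all tested probe sets were lower, and 10.9% of those with a total-RNA mean below 7.39. Of these 5, all but cox1 entered the test through total RNA, so the count is a description and draws no support from these shares. The log2 difference was -2.62 ± 0.23 for cox2 (adjusted p = 7.7e-09), -2.21 ± 0.30 for nad5 (adjusted p = 3.7e-06), -1.85 ± 0.39 for nad1 257321_at (adjusted p = 0.00051), -1.63 ± 0.37 for nad9 (adjusted p = 0.00089) and -0.77 ± 0.19 for cox1 (adjusted p = 0.0024). Pairing arrays by replicate number and condition, polysomal lay below total RNA in 12 of 12 pairs for cox2, nad5, nad1 257321_at and cox1, and in 10 of 12 for nad9. The difference was -0.27 for nad4 (95% interval -0.77 to 0.22) and -0.31 for nad1 257322_at (-0.80 to 0.17), and neither passed. Within complex IV, the 95% interval of cox2 (-3.10 to -2.15) and that of cox1 (-1.17 to -0.37) did not meet. The difference between these 2 genes was not tested.

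The 10 dim probe sets were fitted without the filter, as an alternative added after the data were seen. Polysomal nad4L, a small membrane subunit of complex I, ranged from 1.11 to 4.59 over 12 arrays (median 3.75), against 5.38 to 6.32 (median 5.69) in total RNA. The fractions of nad4L did not overlap, and its log2 difference over the 4 conditions was -2.57 (adjusted p = 2.9e-06 among all probe sets). By the same fit nad1 257323_at (-3.25), the second nad5 probe set 257337_at (-1.79), nad1 257325_at (-1.63) and nad6 (-1.05) also passed. The 12 polysomal values of nad1 257323_at ranged from 0.08 to 3.52, with 5 at the lowest value of their array, so its difference has no exact size. The other 5, nad2 (-0.16), nad7 (-0.31), nad1 257324_at (-0.65), 257329_at (-0.67) and 257327_at (0.41), did not pass. Leaving out 257323_at, the nad1 probe sets, which share 1 annotated gene, thus ran from -1.85 to 0.41.

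Other organelle transcripts mostly shared the direction of these differences. The 7 tested nad and cox probe sets had a median of -1.63 over the 4 conditions. Of these, 4 had polysomal means below the filter and so entered the test through total RNA. Without the filter the median over all 17 nad and cox probe sets was -1.05. The sizes below are therefore not ranked against those of the 7. The other genes of the mitochondrial chromosome had 6 probe sets, of which 4 were tested, and these had a median log2 difference of -0.42 over the 4 conditions, with 2 lower and none higher, where 19.6% of all tested probe sets were lower and 25.8% higher. By condition 1 was lower, in dark Col-0, and with the replicate block 2 more in light Col-0. The lower ones were ccb382 (-0.58 ± 0.13) and ccb452 (-0.67 ± 0.18), both for proteins of cytochrome c assembly. Among 66 tested probe sets of plastid-encoded genes, 34 were lower and 5 higher, beside the same 19.6% and 25.8%, with a median of -0.67. They included psaA, a core protein of photosystem I (-2.98 ± 0.17), and psbD, the D2 protein of photosystem II (-2.18 ± 0.14), while atpH, a subunit of the plastid ATP synthase, was higher (2.76 ± 0.41). By single condition, 7 plastid probe sets were lower and 1 higher in light dcp5-1, 18 and 1 in dark dcp5-1, 7 and 1 in light Col-0, and 8 and 1 in dark Col-0, and with the replicate block 19 and 5, 37 and 1, 22 and 6, and 27 and 3. Of all tested probe sets 4.75% to 5.58% were lower and 7.7% to 8.52% higher in these conditions. Plastid medians were -0.33, -1.02, -0.42 and -0.63 in that order.

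Nuclear genes for the respiratory chain went both ways. A list of 46 nuclear respiratory genes had 20 probe sets of their own, and 17 of these were tested. Over the 4 conditions 7 were higher and 4 lower in polysomal RNA, with a median log2 difference of 0.15. Of all tested probe sets 25.8% were higher and 19.6% lower, with a median of 0.06, so the share of lower genes on the list was close to the overall one. By condition 3 were higher and 2 lower in light dcp5-1, 3 and 2 in dark dcp5-1, 3 and 3 in light Col-0, and 2 and 1 in dark Col-0, and with the replicate block 5 and 3, 6 and 3, 3 and 4, and 4 and 2. Of all tested probe sets 7.7% to 8.52% were higher and 4.75% to 5.58% lower in these conditions without the block. Transcripts of CYTC-1, the cytochrome c that delivers electrons to complex IV, were higher in polysomal RNA in all 4 conditions, by 0.92, 0.70, 0.77 and 0.97 (adjusted p from 0.00076 to 0.0081). Those of COX5B-2, a nuclear subunit of complex IV, were higher in 3 of 4 conditions and by 0.68 ± 0.11 over all 4. Transcripts of NDC1, an alternative NAD(P)H dehydrogenase, were lower by the same measure (-1.21 ± 0.18), as were those of MPPALPHA (-0.52 ± 0.09), a processing peptidase subunit built into complex III. FRO1, the only tested nuclear subunit of complex I on the list, differed by 0.13 ± 0.09 and did not pass.

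**Figure D3:**
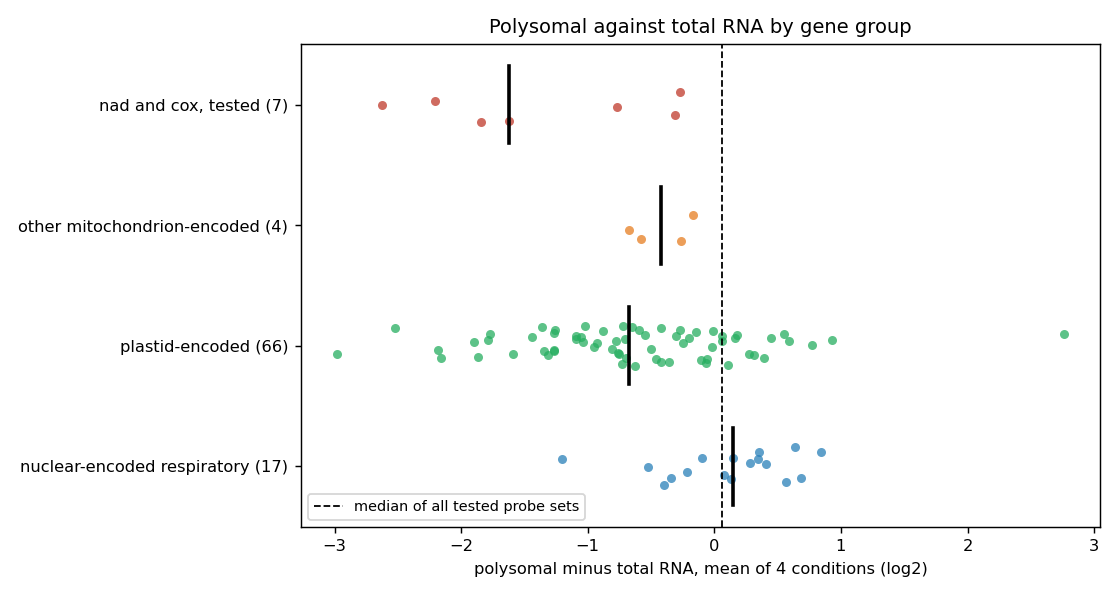
Polysomal minus total log2 difference averaged over the 4 conditions (horizontal axis) for the 7 tested nad and cox probe sets, 4 of other mitochondrion-encoded genes, 66 of plastid-encoded genes and 17 of nuclear-encoded respiratory genes (rows). Points are probe sets, vertical bars the group medians of -1.63, -0.42, -0.67 and 0.15, and the dashed line the median of all tested probe sets. Of the 7 nad and cox probe sets 4 entered the test through total RNA, so the group medians are no ranking of sizes.

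Between genotypes 1 of the 7 tested probe sets was called, in 1 of 4 comparisons. In the dark, polysomal cox2 fell to 3.58, 2.02 and 3.39 in dcp5-1, against 4.71, 4.92 and 4.93 in Col-0. It alone of the 7 had all dcp5-1 arrays below all Col-0 arrays, as had 10.2% of all tested probe sets. The log2 difference was -1.85 ± 0.46 (limma adjusted p = 0.025), where 1.49% of all tested probe sets were lower in dcp5-1. In light, polysomal cox2 had 2.25, 3.85 and 2.93 in dcp5-1, against 4.00, 3.87 and 4.12 in Col-0. Again cox2 alone of the 7 did not overlap (8.89% of all tested probe sets lay lower without overlap), but the log2 difference of -0.99 ± 0.46 did not pass after adjustment (adjusted p = 0.27). In total RNA cox2 differed by -0.14 in light (adjusted p = 0.94) and by -0.53 in the dark (adjusted p = 0.71).

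The dark polysomal call of cox2 ended with each of 4 arrays left out. The adjusted p was 0.054, 0.088 and 0.062 without Col-0 replicate 1, 2 or 3, and 0.16 without dcp5-1 replicate 2, when the difference was -1.37. It also ended with the compared groups alone (adjusted p = 0.34) and on the values as deposited, where cox2 differed by -0.96 (adjusted p = 0.14) and the median of all tested probe sets by 0.88. Whether polysomal minus total cox2 differed between the genotypes was tested on its own, and the change of -1.32 in the dark (95% interval -2.67 to 0.02) and of -0.84 in light (-2.19 to 0.50) did not pass.

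A root marker differed between genotypes. Of 5 root markers 2 had a probe set of their own, the root hair expansins EXPA7 and EXPA18, and only EXPA18 was bright enough to be tested. Both were dim in total RNA, with EXPA7 above 16.6% and EXPA18 above 34.4% of probe sets. Median log2 signals there were 4.03 for EXPA7 and 5.97 for EXPA18, so linear sums of the 2 lean on EXPA18. A genotype difference of EXPA7 alone was not tested. Their summed linear signal in dark polysomal RNA was 139 to 199 in dcp5-1, against 43.6 to 87.0 in Col-0. In light polysomal RNA it was 107 to 210 in dcp5-1, against 16.7 to 75.2 in Col-0. In dark total RNA it was 121 to 224 in dcp5-1, against 48.0 to 59.0 in Col-0, and in light total RNA 108 to 145 in dcp5-1, against 41.5 to 62.9 in Col-0. EXPA18 was higher in dcp5-1 by 1.94 ± 0.41 in light polysomal RNA (adjusted p = 0.0066) and by 1.60 ± 0.41 in dark total RNA (adjusted p = 0.036), and by 1.23 ± 0.41 in dark polysomal RNA (adjusted p = 0.11, or 0.049 with the replicate block). In light total RNA EXPA18 differed by 1.00 ± 0.41 (adjusted p = 0.21). The shoot marker PORB was lower in dcp5-1 in light polysomal RNA, at a difference of -0.95 ± 0.21 (adjusted p = 0.0088), and differed by -0.62 ± 0.21 in light total RNA (adjusted p = 0.11, or 0.043 with the replicate block). In the dark, PORB differed by -0.37 in polysomal and by 0.06 in total RNA, and neither passed. PORB itself responded to light. Its light minus dark difference was -2.37 in dcp5-1 polysomal, -1.79 in Col-0 polysomal, -2.17 in dcp5-1 total and -1.49 in Col-0 total RNA, each called. Its level therefore does not read shoot content alone. The part of root or shoot cells in the cox2 difference was not tested.

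The other 6 tested probe sets were not called between genotypes. In total RNA 0 of 7 passed in the dark, where 2.34% of all tested probe sets did, and 0 of 7 in light, where 3.51% did, and none of them reached an unadjusted p of 0.05. In dark total RNA 2 of the 7, nad4 and cox2, lay lower in dcp5-1 without overlap, as did 10.7% of all tested probe sets. All 7 differences in total RNA were at or below -0.14, with medians of -0.26 in light and -0.44 in the dark, beside -0.02 and -0.01 for all tested probe sets. With single arrays left out these medians ran from -0.52 to -0.03 in light and from -0.57 to -0.26 in the dark. Other organelle genes shared this direction, with plastid-encoded medians of -0.46 in light and -0.38 in the dark. Other mitochondrion-encoded medians were -0.43 and -0.22. The dim members, which were not tested, went both ways in light total RNA. There nad7 had 4.80 in dcp5-1, against 3.90 in Col-0, while nad1 257324_at had 3.54, against 5.44. Polysomal differences went both ways, from -0.99 to 0.58 in light, where 4.33% of all tested probe sets were called, and from -1.85 to 0.77 in the dark, where 3.28% were. The largest positive difference was that of nad5 in the dark, at 4.61 ± 0.51 in dcp5-1, against 3.84 ± 0.73 in Col-0 (SD, n = 3 each), where the arrays overlapped and the difference of 0.77 did not pass (adjusted p = 0.59). On the values as deposited this nad5 difference was 1.66 (adjusted p = 0.049).

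**Figure D4:**
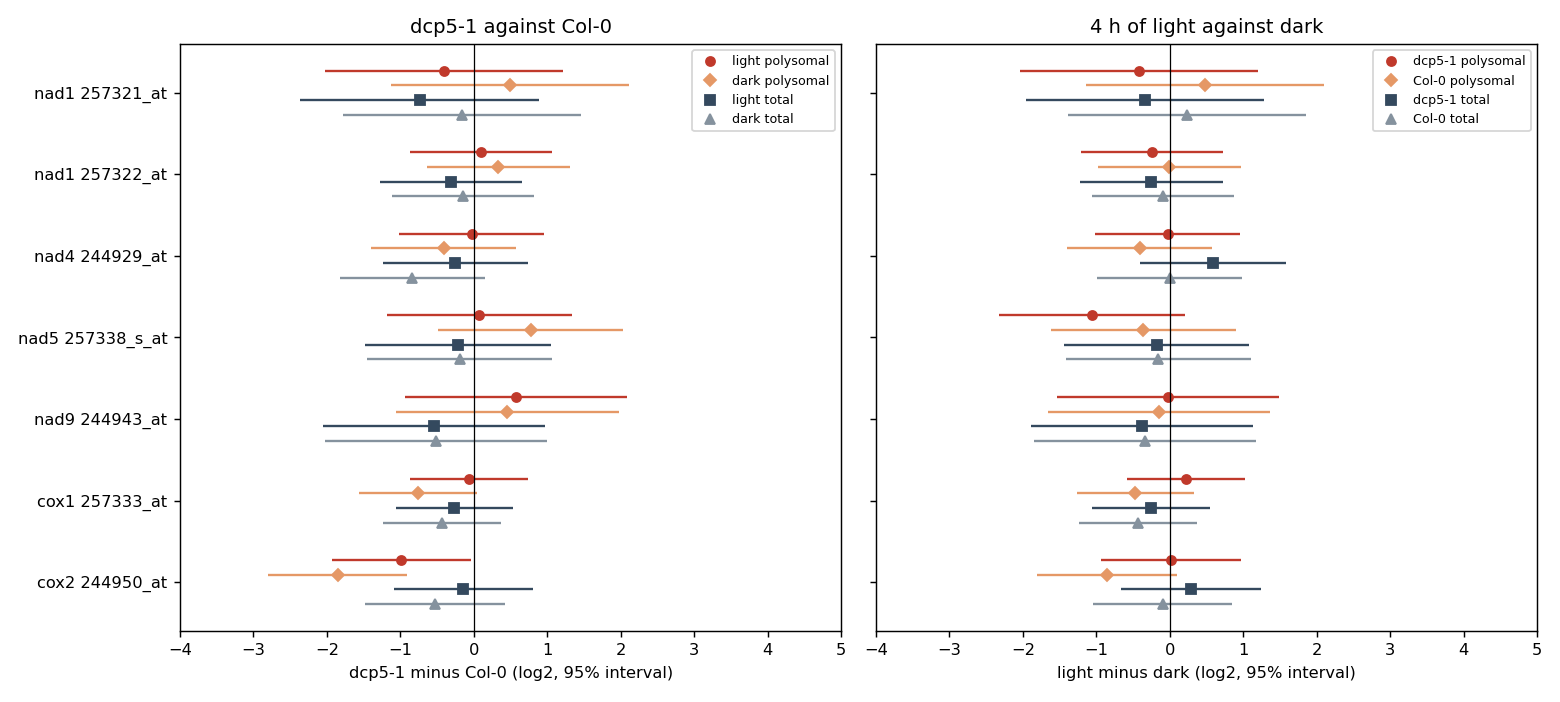
Log2 differences with 95% intervals (horizontal axes) of the 7 tested nad and cox probe sets (rows), between dcp5-1 and Col-0 (left panel) and between 4 h of light and dark (right panel), with a symbol for each RNA fraction and condition or genotype. Apart from cox2 in polysomal RNA between genotypes (-1.85 in the dark and -0.99 in light), the intervals include 0.

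No light change was called in the 7 tested probe sets. In limma's test 0 of 7 passed in polysomal RNA of dcp5-1, where 21% of all tested probe sets were called, in polysomal RNA of Col-0, where 29.2% were, in total RNA of dcp5-1 (21.8%) and in total RNA of Col-0 (29.5%). The shares given are over all tested probe sets, whose mean log2 signal had a median of 8.29, against 4.89 to 7.04 for the 7. A share among probe sets of like level was not taken for light. None of the 7 reached an unadjusted p of 0.05 in any of the 4 comparisons. Polysomal cox2 in Col-0 came nearest, at 4.00 ± 0.13 in light, against 4.85 ± 0.12 in the dark (SD, n = 3 each), with a log2 difference of -0.86 ± 0.46 (adjusted p = 0.18). There 2 of the 7, cox1 and cox2, lay lower in light without overlap, as did 20% of all tested probe sets, while in dcp5-1 total RNA 2 of the 7, nad4 and cox2, lay higher, as did 18.5%. Polysomal nad5 in dcp5-1 had 3.55 ± 0.84 in light, against 4.61 ± 0.51 in the dark (adjusted p = 0.24). In total RNA the 95% intervals still allowed light changes of cox1 from -1.06 to 0.54 in dcp5-1 and from -1.23 to 0.37 in Col-0.

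Light did not detectably alter polysomal against total signal of these genes in either genotype, nor did genotype in the dark or in light. Genotype did not detectably alter their light response in total or polysomal RNA. For each of these 6 comparisons 0 of the 7 tested members passed in limma's test, and none reached an unadjusted p of 0.05. Over all tested probe sets no call was made in the 4 comparisons of polysomal against total RNA between light conditions or genotypes (0%). An unadjusted p under 0.05 was reached by 360 probe sets for light in Col-0 and 348 for light in dcp5-1. For genotype 223 reached it in the dark and 340 in light. The light response differed between genotypes in 8 probe sets in total RNA (0.0469%) and 9 in polysomal RNA (0.0528%). With 3 arrays in a group and the spread of these dim probe sets, intervals were wide. For cox1 the light change of polysomal against total RNA was 0.48 in dcp5-1 (95% interval -0.65 to 1.61) and -0.04 in Col-0 (-1.17 to 1.09).

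The profile that the 7 tested members share over the 8 groups separates the RNA fractions. The median of the 7 tested members' deviations from their own means was -0.57, -0.54, -0.71 and -0.26 in polysomal RNA of dcp5-1 in light, dcp5-1 in the dark, Col-0 in light and Col-0 in the dark. In total RNA it was 0.36, 0.74, 0.91 and 1.03 in the same order. Among single-gene probe sets the closest to this profile, by Pearson correlation over the 8 group means, were AT3G17365 (0.997), AT3G57470 (0.991), AT4G27720 (0.989), MBAC1 (0.988), AT2G35750 (0.984) and AT1G30890 (0.984). All of these are nuclear genes, and MBAC1 encodes a carrier of basic amino acids in the inner mitochondrial membrane. Their log2 differences, polysomal minus total, ran from -1.51 to -0.64. The 8 means share arrays and the strong fraction difference, so these correlations are a description only.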

How the data were processed

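Biotinylated cRNA from polysome-bound or total RNA was hybridised to Affymetrix ATH1 arrays, and signals were made with GCOS 1.4, per the submitters' processing notes. The deposited values are log2 signals. Trimmed means (2% at each end) were 500.0 on every total-RNA array, while the authors' polysomal values had been divided by an array's own factor, whose meaning is not given in the sources used here. The genome build is not given in the sources used here. GEO's platform table named 14016 probe sets, 13513 with 1 gene, 503 with several, and left 8794 unnamed. No Entrez ID of a member matched RefSeq, so members were placed by symbol.

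Polysomal arrays were centred as described above. Group means of all 24 arrays were fitted in 1 model with limma 3.58.1 in R 4.3.3 (eBayes with an intensity trend), with Benjamini-Hochberg adjustment over 17059 probe sets in each of 18 comparisons and the 1 added. Replicate numbers paired the samples, since residuals of same-numbered arrays correlated at 0.15 or more in every pair (pooled 0.22 to 0.51). The main model held group means only and so left this pairing out. The replicate block, which takes it in, was run as an alternative. The fit was tested on simulated data. No 2 arrays held identical values. Depth does not apply to arrays, whose number limits precision.

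Every member was named. From each other list up to 4 genes with the smallest adjusted p in a comparison were eligible, and the 6 probe sets most like the tested members' profile. The members and lists were chosen with earlier results of these data known. Alternatives were the deposited values, centring of every array, quantile normalisation, trimmed-mean scaling, a block for replicate number, no filter or a stricter one on dim probe sets, a fit of the compared groups only, a fit with no variance trend, array weights, and each array left out.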

Additional observations from a re-analysis of the deposited data

How the results depend on the processing

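Signal over background limits these results: 10 of 17 probe sets were too dim to test, and no member stayed under a filter that left out the lower 50%, so that setting gave no value. The median difference over tested members moved by less than 0.49 (the pooled SD of array medians) under centring of every array, quantile normalisation, trimmed-mean scaling, the replicate block, the compared groups alone, no variance trend and array weights. For 7 of 19 comparisons, polysomal against total RNA and genotype in total RNA, it kept its sign under every alternative run. The other 12 medians took the other sign under at least 1, such as light by genotype in total RNA with array weights (0.29, against -0.02). On the values as deposited it moved with the array factors. Polysomal minus total was then -1.88 in light dcp5-1, -2.62 in dark dcp5-1, -2.93 in light Col-0, -3.93 in dark Col-0 and -3.00 over all 4 conditions. By light it was 0.92 in Col-0 polysomal RNA, against -0.36 after centring, and 1.24 for polysomal minus total in Col-0, by genotype in the dark 1.23 in polysomal RNA and 1.38 for polysomal minus total, and for light by genotype in polysomal RNA -0.78. In this setting nad1 257321_at passed for light in Col-0 polysomal RNA (1.76, adjusted p = 0.049), where the median of all tested probe sets was 1.23.

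Without the dim filter, over 17 probe sets, polysomal minus total was -1.42 in light Col-0, -1.11 in dark Col-0 and -1.05 over all 4 conditions. With single arrays left out the median ranged from -1.37 to -0.32 for polysomal minus total in light dcp5-1 and from -2.33 to -0.98 in light Col-0. For genotype in dark polysomal RNA it ranged from -0.24 to 0.19, which does not take in the 0.33 found with all arrays. It ranged from -0.0518 to 0.74 for genotype in dark polysomal minus total and from -0.63 to 0.0945 for light in dcp5-1 polysomal minus total. For light by genotype in polysomal RNA it ranged from -0.46 to 0.48. The cause was not tested. The replicate block changed no call of a member other than those given above. Over all 4 conditions the 5 calls held under every alternative run, with adjusted p at most 0.0057. With quantile normalisation nad5 also passed in dark dcp5-1 (-1.58, adjusted p = 0.049). No member's call took the other direction.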

Other observations

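Several nuclear respiratory genes changed with light. SDH1-1, the flavoprotein subunit of succinate dehydrogenase, rose in light in all 4 comparisons, by 0.97 ± 0.17 in dcp5-1 polysomal, 0.84 ± 0.17 in Col-0 polysomal, 1.18 ± 0.17 in dcp5-1 total and 1.07 ± 0.17 in Col-0 total RNA (log2, SE). SDH2-1, an iron-sulfur subunit of the same complex, rose by 0.86 to 1.42 in the same 4, and CYTC-2, a cytochrome c, by 1.15 to 1.39. NDB1, a dehydrogenase on the outer face of the inner mitochondrial membrane, fell by 1.13 in dcp5-1 polysomal RNA, by 0.58 in Col-0 polysomal RNA and by 0.84 in Col-0 total RNA, while its change of -0.59 in dcp5-1 total RNA did not pass (adjusted p = 0.056, or 0.00685 with the replicate block). NDC1 rose by 1.07 in total RNA of both genotypes. In counts, 3 of the 17 tested rose and 1 fell in dcp5-1 polysomal RNA, 3 and 1 in Col-0 polysomal RNA, 5 and 0 in dcp5-1 total RNA, and 4 and 2 in Col-0 total RNA, and with the replicate block 4 and 2, 3 and 3, 5 and 3, and 4 and 3, where of all tested probe sets 10.4% rose and 10.6% fell, 13.6% and 15.6%, 11.1% and 10.7%, and 14.4% and 15.1%. These shares of the list are not set apart from the overall ones by any test. Between genotypes 0 of these 17 passed in limma's test in any of the 4 comparisons, and with the replicate block 1 did, NDB3 in dark polysomal RNA (1.12, adjusted p = 0.046).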
